A study of Brassica napus with 9 samples.

Results

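The transcripts described here are those of *GPX1* (BnaC08g33590D), *APX1* (BnaC06g04380D), *GSTF3* (BnaA09g00870D) and *GSH3* (BnaC01g40390D) in oilseed rape leaves, 4 of the 104592 genes whose levels were listed for each library. The genes were taken by identifier, from those that carry these symbols in the study. They come from the study's own differentially expressed genes (DEGs), so a difference at these genes between the same libraries is not independent evidence. RNA was sequenced from leaf 3 of wild-type *Brassica napus*, genotype Zhongshuang 11. There were 3 groups of 3 biological replicates, grown with 4 plants to a pot. D + F plants had their leaves sprayed with fullerol at 100 mg/L, a carbon cage made soluble by hydroxyl groups, while the soil dried to 30% of field capacity. D plants were dried in the same way and sprayed with distilled water. CK plants were sprayed with distilled water too and stayed at 80% of field capacity. Spraying began 21 days after sowing, and leaves were taken at 25 days, when the drying had lasted only since day 20. There was no group with fullerol at 80% of field capacity, so that fullerol was compared under drought alone.

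Drying leaves build up hydrogen peroxide and lipid peroxides, because photosynthesis goes on absorbing light while carbon fixation slows. Ascorbate peroxidases reduce hydrogen peroxide with ascorbate as the electron donor, glutathione peroxidases reduce hydrogen peroxide and lipid peroxides, and plant members of this family often draw their electrons from thioredoxin. Glutathione S-transferases of the phi class, to which *GSTF3* belongs in *Arabidopsis thaliana*, join glutathione to reactive compounds, and some also reduce organic peroxides. The 4th gene stands outside this set, since the study describes *GSH3* as a probable glutamate dehydrogenase. That enzyme converts glutamate and 2-oxoglutarate into each other, with release or uptake of ammonium. BnaC01g40390D also occurs in the study's nitrogen metabolism list and not in its glutathione list, so the common heading of antioxidant genes is used below for *GPX1*, *APX1* and *GSTF3* only. The study sets the symbol *APX1* beside BnaC06g04380D, but this identifier is in none of its pathway lists, and whether it is the gene model meant could not be settled from the sources used here. All values under *APX1* are those of BnaC06g04380D, which rests on that symbol alone for its place among ascorbate peroxidases.

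Levels are FPKM, the read pairs on a gene divided by its length and by the size of the library. The libraries held 21939149 to 26042003 read pairs, and a 1-kilobase gene with 3 reads had an FPKM of 0.115 to 0.137. A difference was called where limma's test on log2(FPKM + 1) gave a Benjamini-Hochberg adjusted p under 0.05 over the 50626 genes tested. Fold changes on this scale understate the change of genes with few reads, and reads are therefore given for *GSTF3* and *GSH3*. The median log2 fold change of all genes tested was 0.14 in D + F vs. D, 0.04 in D + F vs. CK, and -0.10 for D vs. CK. After median-of-ratios scaling it was 0.01, 0.01 and -0.01 for the same comparisons. In whole leaves, fewer cells of a type and less RNA per cell cannot be told apart. The leaf label was not checked against marker genes here, since the identifiers carry no names.

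Under drought without fullerol (D vs. CK), *GPX1*, *APX1* and *GSTF3* were higher and *GSH3* was lower, 4 of 4 genes called beside 32.0% of all genes tested (12.3% higher and 19.7% lower). In D + F vs. CK, *GPX1* and *APX1* were higher and *GSH3* was lower, 3 of 4 beside 17.1% (8.90% higher and 8.16% lower). In D + F vs. D, limma called 0 of 4, beside 1.15%, while 3 of 4 had an unadjusted p under 0.05 beside 17.6%, and limma's voom on reads also called 0 of 4 with 3 of 4 under 0.05 unadjusted. Among all genes tested, 0.808% were called higher and 0.338% lower there. The study tested read counts with DESeq instead, and it reported *GSH3* as up-regulated in D + F vs. D. Its glutathione list for that comparison holds *GPX1* and *GSTF3*. The study also assayed *GPX1*, *APX1* and *GSTF3* by qRT-PCR, and it described the patterns of its assayed genes as similar to those from sequencing. *GPX1* and *APX1* exceeded an FPKM of 1 in all 9 libraries. *GSTF3* entered the test through its D libraries alone and *GSH3* through its CK libraries alone, so that these genes had to differ between groups in order to be tested.

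**Figure D1:**
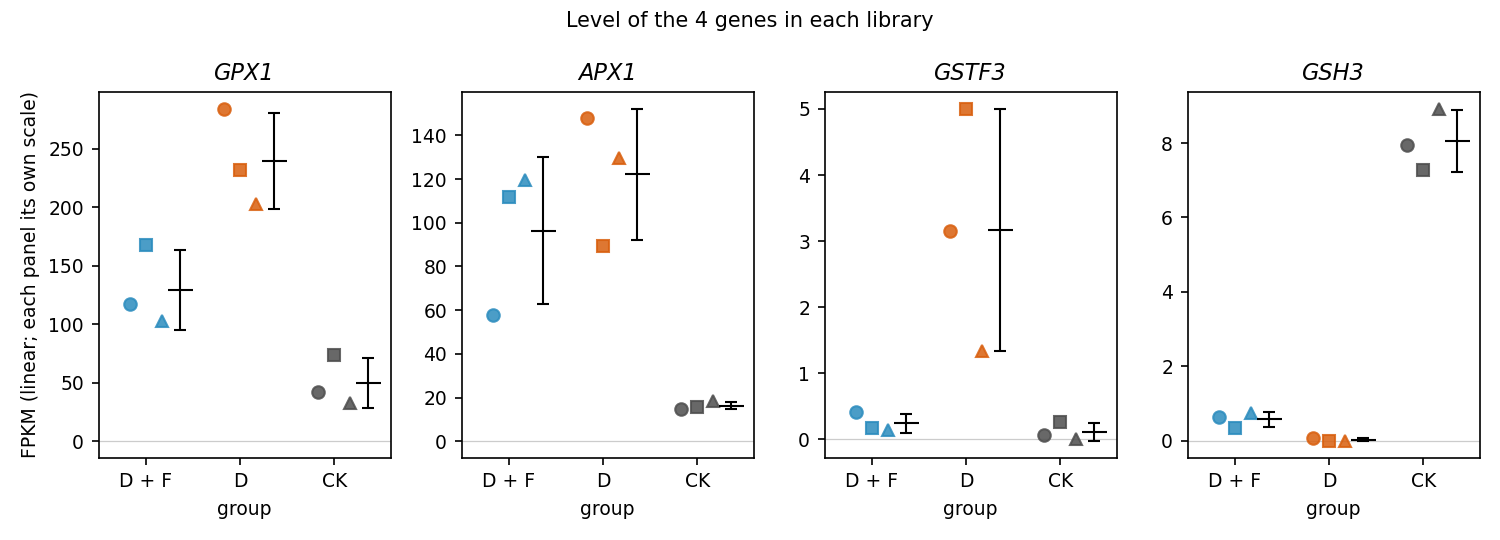
FPKM of *GPX1*, *APX1*, *GSTF3* and *GSH3* in each of the 9 libraries, on a linear axis with its own scale in each panel. Points are libraries (circle, square and triangle for replicates 1, 2 and 3), and bars show the mean and SD of 3 libraries. *GPX1* and *APX1* were lowest in CK, *GSTF3* stood out in D alone, and *GSH3* stood out in CK alone.

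*GPX1* had levels of 116.9, 167.5 and 102.6 FPKM in the D + F libraries, 284.3, 231.8 and 203.1 FPKM in the D libraries, and 42.2, 73.4 and 32.8 FPKM in the CK libraries. No library of one group overlapped with those of another, as was the case for 24.8% of all genes tested between D + F and D, 39.4% between D + F and CK, and 49.8% between D and CK. The order of the groups was D, D + F, CK. The means were 129 ± 34.1 FPKM in D + F, 239.7 ± 41.2 FPKM in D and 49.5 ± 21.2 FPKM in CK (SD, n = 3 each). In all groups *GPX1* was an abundant transcript, since it lay above 97.7% of the genes tested in D + F, 98.98% in D and 93.4% in CK. It was read deeply, with 1707 to 3167 read pairs in D + F libraries, 3441 to 4886 in D libraries and 523 to 1263 in CK libraries. The coefficient of variation of the FPKM was 26.4% in D + F, 17.2% in D and 42.9% in CK.

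The level of *GPX1* in D was 4.84 times that in CK (log2 fold change 2.32, SE 0.31, limma adjusted p = 0.00205). Its level in D + F was 2.61 times that in CK (log2 fold change 1.41, SE 0.33, limma adjusted p = 0.0269). That call was lost in 4 of the 6 fits that left out 1 library, with limma adjusted p = 0.0656 without CK replicate 1, 0.0519 without D + F replicate 1, 0.103 without D + F replicate 2 and 0.0579 without D + F replicate 3. D + F libraries had 0.538 times the level of D libraries (log2 fold change -0.91, 95% confidence interval -1.44 to -0.37). The limma adjusted p of this difference was 0.119, so it was not called although the libraries did not overlap.

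*APX1* had levels of 57.8, 111.7 and 119.5 FPKM in the D + F libraries, 148.0, 89.3 and 129.5 FPKM in the D libraries, and 14.96, 15.8 and 18.2 FPKM in the CK libraries. All 6 drought libraries lay above all CK libraries, and the D + F libraries overlapped with the D libraries. Of all genes tested, 39.4% did not overlap between D + F and CK, and 49.8% between D and CK. The means were 96.4 ± 33.6 FPKM in D + F, 122 ± 30.0 FPKM in D and 16.3 ± 1.70 FPKM in CK (SD, n = 3 each). *APX1* lay above 96.7% of the genes tested in D + F, above 97.7% in D and above 77.2% in CK.

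The level of *APX1* was 5.90 times that of CK in D + F (log2 fold change 2.43, SE 0.29, limma adjusted p = 0.00345) and 7.49 times that of CK in D (log2 fold change 2.80, SE 0.21, limma adjusted p = 0.000302). Both calls held in every fit without 1 library. D + F and D did not differ beyond the spread of their libraries, with a log2 fold change of -0.38 and a 95% confidence interval of -1.13 to 0.37 (limma adjusted p = 0.563). The interval covers both the value of *GPX1* (-0.91) and small positive values. The spread under drought was wide, with an SD of log2(FPKM + 1) of 0.57 in D + F, 0.37 in D and 0.14 in CK, where the medians over all genes tested were 0.22, 0.19 and 0.24 for the same groups.

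*GSTF3* was a rare transcript, with 0.410, 0.179 and 0.136 FPKM in the D + F libraries, 3.16, 5.01 and 1.33 FPKM in the D libraries, and 0.0659, 0.263 and 0 FPKM in the CK libraries. In reads, this was 6, 3 and 2 in D + F, 48, 74 and 20 in D, and 1, 4 and 0 in CK. Only the D libraries stood clear of the others, while D + F and CK libraries overlapped. Of all genes tested, 24.8% did not overlap between D + F and D, and 49.8% between D and CK. *GSTF3* passed the filter only through its D libraries. The means were 0.242 ± 0.147 FPKM in D + F, 3.17 ± 1.84 FPKM in D and 0.110 ± 0.137 FPKM in CK (SD, n = 3 each).

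By reads, and relative to the library totals, D exceeded CK 28.1-fold at *GSTF3* (142 against 5 reads, exact 95% interval of counting error 11.8 to 87.8). The limma fit gave a log2 fold change of 1.81 (SE 0.34, adjusted p = 0.00739), which reached 4.77 under the alternative scales tried. D + F libraries held 11 reads against 142 in D, a ratio of 0.0756 (0.0369 to 0.139), or 13.2-fold lower. In the limma fit this difference was -1.65 on the log2 scale (SE 0.33) and its adjusted p was 0.0727, which fell to 0.0404 without D replicate 3 and to 0.0426 in 1 fit on all 9 libraries, so that the call turned on these choices. The difference was -3.16 with a pseudocount of 0.1 and -3.49 with voom, without a call. Against CK, D + F had 2.12 times the reads (11 against 5, 0.68 to 7.8), and limma's adjusted p was 0.616. Reads without molecular identifiers are not independent molecules, and these intervals cover counting error only.

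*GSH3* ran the other way, with 0.638, 0.342 and 0.742 FPKM in the D + F libraries, 0.0683, 0 and 0 FPKM in the D libraries, and 7.95, 7.27 and 8.92 FPKM in the CK libraries. The reads were 18, 11 and 21 in D + F, 2, 0 and 0 in D, and 232, 213 and 242 in CK. The groups did not overlap, and the order was CK, D + F, D. Of all genes tested, 24.8% did not overlap between D + F and D, 39.4% between D + F and CK, and 49.8% between D and CK. *GSH3* passed the filter only through its CK libraries, so that its distance from CK was largely fixed in advance. Levels averaged 0.574 ± 0.208 FPKM in D + F, 0.0228 ± 0.0395 FPKM in D and 8.05 ± 0.832 FPKM in CK (SD, n = 3 each).

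In D, *GSH3* was close to the limit of detection, and its reads relative to the totals were 0.00288 of those in CK (2 against 687 reads, exact 95% interval 0.00034 to 0.0104). The limma fit gave -3.14 (SE 0.15, adjusted p = 5.88e-05), and with other scales down to -8.08, since a value so near 0 depends on the pseudocount. D + F was also lower than CK, with 0.0713 times its mean FPKM (log2 fold change -2.53, SE 0.17, limma adjusted p = 0.000624). Between the drought groups, the D + F libraries held 50 reads against 2 in D, 24.4 times as many (6.41 to 207). Both intervals pool the reads of a group and cover counting error only, not the spread of its libraries. On the log2 scale the difference was 0.61 (SE 0.16), and it was not called, with a limma adjusted p of 0.128.

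**Figure D2:**
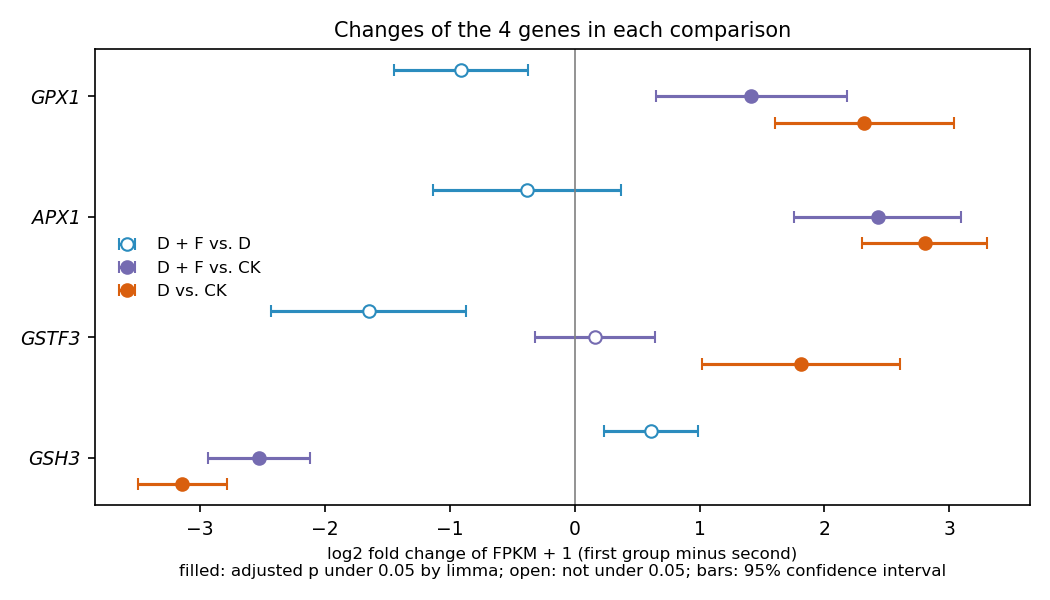
Log2 fold change of FPKM + 1 (x axis, first group minus second) for the 4 genes in each of the 3 comparisons, with 95% confidence intervals from limma. Filled points have a Benjamini-Hochberg adjusted p under 0.05, and open points do not, as was the case for all 4 genes in D + F vs. D.

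The place of D + F between the other groups was measured on log2(FPKM + 1) as a position that is 0 at the D mean and 1 at the CK mean. It is computed from the same D + F, D and CK libraries as the fold changes above, and the values are descriptions with no test. *GSTF3* lay at 0.910, with its D + F libraries at 0.805, 0.947 and 0.977, near the CK level. *GPX1* lay at 0.391, with libraries at 0.438, 0.216 and 0.518. *GSH3* lay at 0.195, with libraries at 0.217, 0.125 and 0.245. *APX1* lay at 0.135, and its libraries ran between 0.370 for replicate 1 and 0.000569 for replicate 3, which was at the D mean. The D + F libraries of *GSTF3* therefore did not overlap in this measure with those of the other 3 genes, and those of *APX1* spread most. For the rare transcripts the position depended on the scale, as seen with a pair of other scales chosen after seeing the data. That of *GSH3* was 0.402 with a pseudocount of 0.1 and 0.522 from limma's voom on reads, which put it level with or nearer to CK than *GPX1* (0.389 and 0.390 on the same scales). That of *GSTF3* was 0.792 and 0.732, still the nearest to CK, and that of *APX1* was 0.133 and 0.134. The order of *GSH3* and *GPX1* thus depended on the scale.

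**Figure D3:**
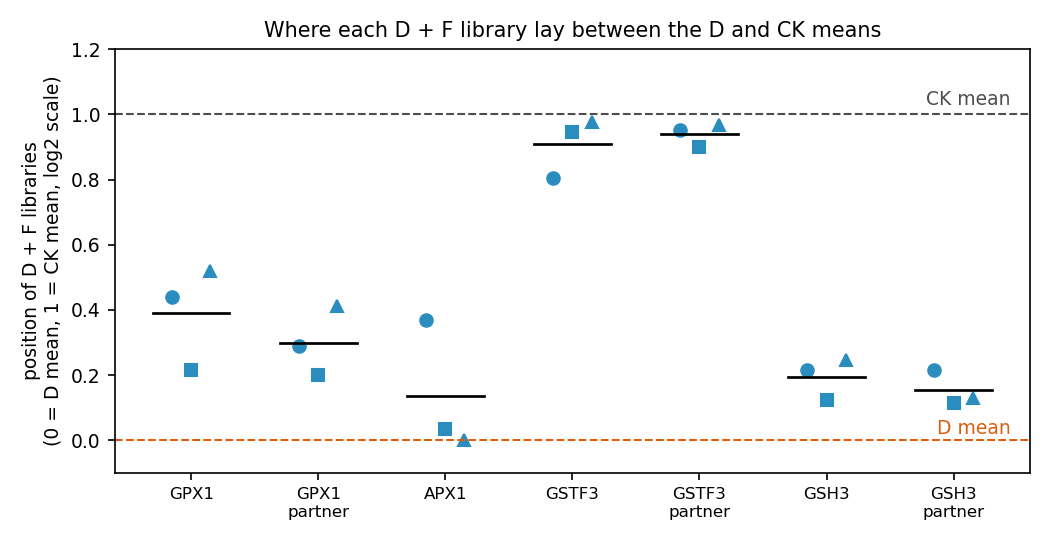
Position of each D + F library between the D mean (0) and the CK mean (1) on the log2(FPKM + 1) scale, for the 4 genes and for the gene models that share a KEGG identifier with 3 of them. Points are libraries and black lines are the values from group means. *GSTF3* (0.910) and its partner (0.940) lay nearest to CK, *GPX1* (0.391) and its partner (0.299) lay between, and *APX1* (0.135) lay nearest to D. *GSH3* lay at 0.195 on this scale but at 0.402 with a pseudocount of 0.1.

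Oilseed rape is an allotetraploid and carries related gene copies from both of its parent genomes, so that reads of near-identical copies can be split between them. The sources used here do not give how such reads were counted. In pathway lists of the study, 3 of the 4 genes share a KEGG identifier, that of a *Brassica rapa* gene, with 1 other gene model each, called the partner below. No partner was listed for *APX1*.

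The partner of *GPX1*, BnaAnng31150D, had 147.4, 169.4 and 121.4 FPKM in D + F, 233.1, 235.3 and 227.4 FPKM in D, and 49.1, 67.1 and 32.7 FPKM in CK. Its groups kept the order seen at *GPX1* without overlap, and its D libraries lay closer together. The shares of all genes tested without overlap are those given for *GPX1*. The log2 fold changes were -0.68 in D + F vs. D (limma adjusted p = 0.111), 1.58 in D + F vs. CK (0.0114, but 0.0569 without D + F replicate 2) and, for D vs. CK, 2.26 (0.00129). *GPX1* took 46.6% ± 2.83 of the summed level of the pair in D + F, 50.6% ± 3.97 in D and 49.5% ± 3.04 in CK (SD, n = 3 each). No difference in these shares was detected by exact two-sided permutation tests, with p = 0.3 for D + F vs. D, 0.2 for D + F against CK and 0.8 for D vs. CK, where 3 against 3 libraries cannot give less than 0.1.

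The partner of *GSTF3*, BnaCnng19060D, was more abundant than *GSTF3* in every library, with 0.751, 1.02 and 0.680 FPKM in D + F, 28.7, 48.8 and 5.87 FPKM in D, and 0.396, 1.05 and 0.284 FPKM in CK. Again only the D libraries stood apart, and replicate 3 was the lowest of them at both gene models. The partner's log2 fold change was 3.81 in D vs. CK (limma adjusted p = 0.00574, and 0.0528 with voom) and 0.23 between D + F and CK (0.524). Between D + F and D it was -3.58 (SE 0.65), the 14th most negative value of the 50626 genes tested, with a limma adjusted p of 0.0576 that ran between 0.0234 and 0.183 over 16 alternatives and passed the threshold in 3 of them. *GSTF3* made up 22.3% ± 11.3 of the pair in D + F, 12.6% ± 5.15 in D and 11.4% ± 10.3 in CK (SD, n = 3 each), with exact permutation p between 0.3 and 1.0.

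The partner of *GSH3*, BnaA01g33880D, had 0.248, 0.124 and 0.141 FPKM in D + F, 0 FPKM in all D libraries, and 1.10, 1.88 and 2.62 FPKM in CK. Its reads were 7, 4 and 4 in D + F and 32, 55 and 71 in CK. With a floor of 3 reads over the group in place of 0, D was 53.3-fold lower than CK, and D + F was 4.88-fold higher than D. These values leave out the counting error of the CK and D + F reads and are not lower bounds. D + F had 0.0916 of the CK reads (15 against 158, exact 95% interval of counting error 0.0501 to 0.156). limma called this partner lower in D vs. CK (adjusted p = 0.00369) and lower in D + F vs. CK (0.0135, but up to 0.0612 when CK or D + F replicate 2 was left out), and did not call it in D + F vs. D (0.437). It passed the filter on low values only through its CK libraries. *GSH3* held most of the level of the pair, 76.4% ± 6.58 in D + F and 81.6% ± 5.58 in CK (SD, n = 3 each), and was the only one of the pair with reads in D, in 1 library.

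The sum of a gene and its partner behaved like the gene alone in direction. For the summed FPKM, the log2 difference in D + F vs. D was -0.79 for the *GPX1* pair, -3.58 for the *GSTF3* pair and 0.76 for the *GSH3* pair. Libraries of these sums did not overlap between any groups apart from the *GSTF3* pair in D + F and CK (exact two-sided permutation p = 0.4), and all the other comparisons of sums gave 0.1, the smallest p that 3 against 3 libraries allow. Of all single genes tested, 24.8% did not overlap between D + F and D, 39.4% between D + F and CK, and 49.8% between D and CK.

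**Figure D4:**
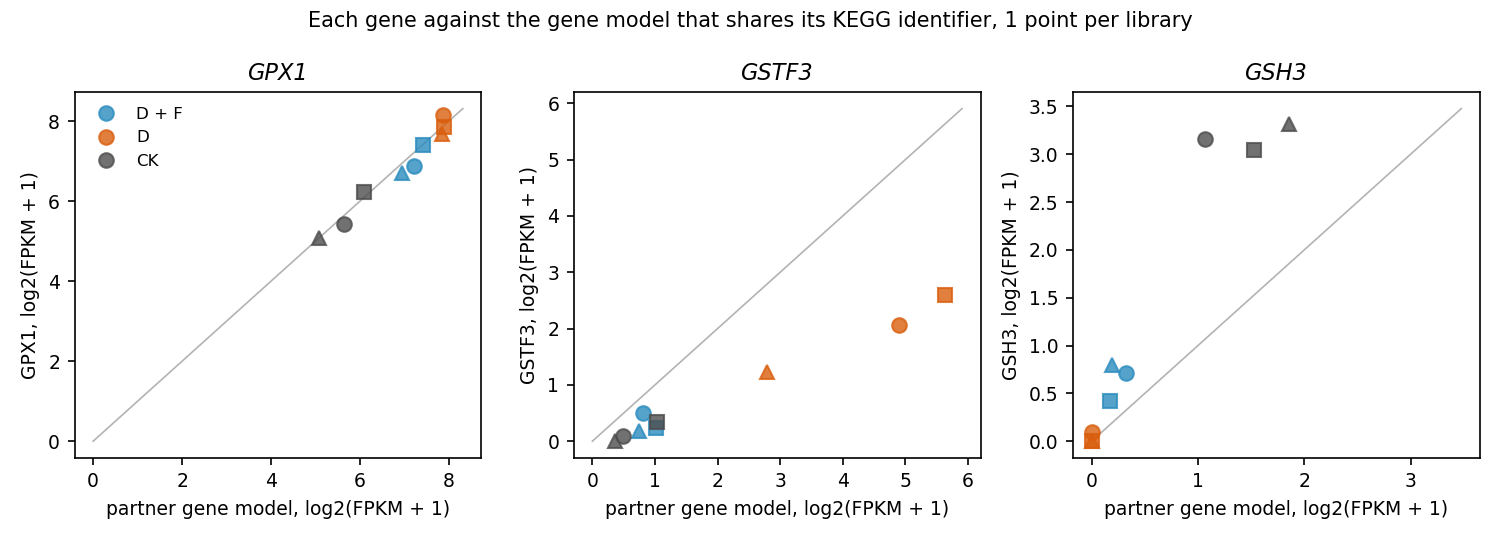
Level of *GPX1*, *GSTF3* and *GSH3* (y axis) against that of the gene model that shares its KEGG identifier (x axis), both as log2(FPKM + 1), with 1 point per library, colour for the group, shape for the replicate and a grey line of equal levels. The *GPX1* pair lay along the line, *GSTF3* lay below it, and *GSH3* lay above it in CK and D + F.

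BnaC06g04380D, the identifier of *APX1*, occurred in no pathway list of the study, whereas BnaA06g04380D was listed under both ascorbate and glutathione metabolism. The equal digits are an order along a chromosome and do not mark the gene models as copies of each other. BnaA06g04380D had 395.2, 411.1 and 531.2 FPKM in D + F, 212.9, 190.5 and 221.4 FPKM in D, and 204.5, 241.8 and 426.7 FPKM in CK. It was more abundant than *APX1* in every library, and its D and CK libraries overlapped. The log2 fold change was -0.41 in D vs. CK (limma adjusted p = 0.320) and 0.68 between D + F and CK (0.191), where *APX1* was called higher. Against D, it was higher in D + F (1.08, limma adjusted p = 0.0460), a call lost in 11 of 16 alternatives, among them each fit without 1 library.

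The other genes of the pathways were taken from the study's lists, which it drew from DEGs of these same libraries, so that their counts are not independent evidence. In glutathione metabolism, where the list came from D + F vs. D, 13 genes other than *GPX1* and *GSTF3* were listed and tested. Here limma called 6 of them higher, 1 lower and 6 neither way, with a median log2 fold change of 1.08 beside 0.14 for all genes tested. Of all genes tested, 0.808% were called higher and 0.338% lower, but the list had been picked by its calls in this comparison. *GPX1* (-0.91) and *GSTF3* (-1.65), neither of them called, had the opposite sign to the 6 higher genes. The counts hung on single libraries, since 0 were called without D replicate 1, D replicate 2, D + F replicate 2 or D + F replicate 3, 1 higher without D replicate 3, and 4 higher and 1 lower without D + F replicate 1. Compared with CK, 2 of the 13 were called higher and 0 lower in D + F (median 0.68 beside 0.04), where leaving out 1 library gave 0 to 4 higher, and 2 were called higher and 4 lower in D (median -1.11 beside -0.10). The partner of *GPX1* was higher in both, together with BnaC05g07900D in D + F and BnaC03g43950D in D. Those lower in D were BnaCnng76180D, BnaA06g11500D, BnaA03g49440D and BnaC07g41840D, which like BnaC05g07900D were named after their values were seen.

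On log2(FPKM + 1), the largest rise of the glutathione list in D + F vs. D was that of BnaA02g03440D (2.24, limma adjusted p = 0.0187). It averaged 11.0 ± 2.41 FPKM in D + F, 1.54 ± 0.561 FPKM in D and 6.36 ± 5.0 FPKM in CK (SD, n = 3 each). BnaA10g17440D, named after its values were seen, came close at 2.21 without a call (limma adjusted p = 0.0652). It had 4.71 ± 3.91 FPKM in D + F and 0.0661 ± 0.0658 FPKM in D, a larger ratio. BnaC03g43950D had the most negative value, at 0.678 ± 0.377 FPKM in D + F and 5.33 ± 2.71 FPKM in D, and it was listed at 0 in all CK libraries. Like *GSTF3*, it was called higher in D vs. CK (limma adjusted p = 0.00237) but not called in D + F vs. D (-1.83, 0.0766). With such levels it could pass the filter on low values only with the help of its D libraries, so that it had to differ between groups to be tested. The 1 gene of the list called lower in D + F vs. D, BnaA09g29540D, was named after its values were seen. It averaged 2.43 ± 1.09 FPKM in D + F, 9.0 ± 1.55 FPKM in D and 7.18 ± 7.65 FPKM in CK (log2 fold change -1.58, limma adjusted p = 0.0437).

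The ascorbate and aldarate list held 31 genes from all 3 comparisons, and *APX1* was not among them. Of the 29 that were tested, 2 were called higher and 0 lower in D + F vs. D (median log2 fold change 0.32), 0 higher and 13 lower in D + F vs. CK (-0.70), and 6 higher and 18 lower between D and CK (-0.98). Of all genes tested, 8.90% were called higher and 8.16% lower in D + F vs. CK, and 12.3% higher and 19.7% lower in D. This excess of lower calls in D at large depended on the scaling. After median-of-ratios scaling, 8259 genes were called higher and 8675 lower in D vs. CK, while the list had 8 higher and 17 lower. *APX1* was called higher in both drought groups. Between D + F and CK, the number called lower was 3 without CK replicate 2, 3 without D + F replicate 2 and 4 without D + F replicate 3. The genes called higher in D + F vs. D were BnaA06g04380D and BnaA03g00990D. The second of these averaged 19.4 ± 3.93 FPKM in D + F, 8.25 ± 0.590 FPKM in D and 52.3 ± 29.2 FPKM in CK (SD, n = 3 each), with a log2 fold change of 1.12 and a limma adjusted p of 0.0379 that was lost in 9 of 16 alternatives, 5 of them fits without 1 library.

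The nitrogen metabolism list, to which *GSH3* belongs, also came from the study's DEGs in D + F vs. D. It held 7 other genes, all of them tested. All 7 were called lower than CK both in D + F (median log2 fold change -2.73 beside 0.04 for all genes tested) and in D (-5.44 beside -0.10). Of all genes tested, 8.16% were called lower in D + F and 19.7% in D. These counts held in every fit without 1 library. Between D + F and D, 7 of 7 were called higher in D + F (median 2.71 beside 0.14), as were 0.808% of all genes tested. The study had picked the list by its calls in this comparison, so this count was largely fixed in advance and is not independent evidence. *GSH3* had the same direction without a call, and the count lends it no support. Without 1 library, the number called was 7 (without D + F replicate 1), 4 (without D replicate 3), 1 (without D replicate 2) and 0 (without D replicate 1, D + F replicate 2 or D + F replicate 3). The largest rise on log2(FPKM + 1) was that of *GLN1-4* (BnaC02g06690D). This gene codes for a cytosolic glutamine synthetase, the enzyme that binds ammonium to glutamate. It averaged 172.5 ± 40.3 FPKM in D + F, 15.8 ± 5.81 FPKM in D and 755 ± 279 FPKM in CK (SD, n = 3 each, log2 fold change over D of 3.41, limma adjusted p = 0.0186). No gene of the list fell in D + F vs. D, and on that scale the smallest rise was that of BnaC03g56990D. It averaged 2.2 ± 0.281 FPKM in D + F and 0.152 ± 0.0702 FPKM in D (log2 fold change 1.47, limma adjusted p = 0.0187). The scale understates rises from so low a level, and by the ratio of mean FPKM this gene rose more than *GLN1-4*.

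Likeness of pattern was measured against the 122 other tested genes that have a symbol in the study, as the root mean square difference of log2(FPKM + 1) over the 9 libraries, each gene centred on its own mean. Smaller values are more alike, and the libraries share their depth and groups. A small value does not mean an equal fold change, since the scale understates changes of genes near 0. Closest to *GPX1* were *BFRUCT4* (BnaA06g08310D), a vacuolar invertase that splits sucrose, at 0.334, and *GAA* (BnaA03g03490D) at 0.421. *BFRUCT4* averaged 11.9 ± 2.0 FPKM in D + F, 18.7 ± 2.70 FPKM in D and 3.32 ± 1.58 FPKM in CK (SD, n = 3 each). The partner of *GPX1* was closer than both, at 0.183. Those of *GSTF3* (1.01) and *GSH3* (0.733) lay farther from their genes than the genes named for these below. On this scale the rarer of 2 copies changes less. In D vs. CK the log2 fold change was 1.81 for *GSTF3* and 3.81 for its more abundant partner, and -3.14 for *GSH3* and -1.48 for its rarer partner. These distances therefore do not show that the copies differed in pattern.

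Nearest to *APX1* were *GOLS2* (BnaCnng63310D), a galactinol synthase of raffinose synthesis, at 0.365, and *TSB1* (BnaA08g25210D), a tryptophan synthase subunit, at 0.366. *GOLS2* averaged 7.18 ± 4.65 FPKM in D + F, 10.4 ± 2.38 FPKM in D and 0.148 ± 0.139 FPKM in CK (SD, n = 3 each). *TSB1* averaged 4.69 FPKM in D and 0.271 FPKM in CK. Both thus rose from near 0 by a larger factor than *APX1*, which had 122 FPKM in D and 16.3 FPKM in CK. For *GSTF3* they were *HISN1A* (BnaC04g18340D), of histidine synthesis, at 0.463, and *P5CS2* (BnaC08g26550D), of proline synthesis, at 0.512. *HISN1A* averaged 0.951 ± 0.596 FPKM in D + F, 5.66 ± 1.49 FPKM in D and 0.306 ± 0.0654 FPKM in CK (SD, n = 3 each), so its D libraries stood out as those of *GSTF3* did. *P5CS2*, with 36.2 FPKM in D and 11.4 FPKM in CK, rose by a smaller factor than *GSTF3* (3.17 and 0.110 FPKM).

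*GSH3* was most like *PRODH1* (BnaC07g26120D), a proline dehydrogenase, which breaks proline down toward glutamate, at 0.367. *PRODH1* averaged 1.66 ± 0.882 FPKM in D + F, 0.594 ± 0.280 FPKM in D and 9.85 ± 2.59 FPKM in CK (SD, n = 3 each). Between CK and D, the mean of *GSH3* fell by a larger factor, from 8.05 to 0.0228 FPKM. Second came *SPS1* (BnaA02g04800D), a sucrose-phosphate synthase, at 0.515. These symbol-bearing genes were not the closest of all, since between 24 (*BFRUCT4* to *GPX1*) and 352 (*SPS1* to *GSH3*) of the genes tested had a smaller difference. Among the 4 genes themselves, *GPX1* and *APX1* were the closest at 0.620, and *APX1* and *GSH3* were the farthest apart at 2.62.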

How the data were processed

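The 9 deposited files give 1 FPKM value per gene and library. Per the methods of the study, the authors cleaned the reads of adapters, poly-N and low quality, mapped them to a *B. napus* genome (TopHat 2.0.12, with an index built by Bowtie 2.2.3), summed them per gene with HTSeq 0.6.1 and converted the counts to FPKM. The submitters' processing notes instead name Bowtie 0.12.2 and a mouse build. Whole reads, library totals and coding lengths were solved from the digits of the deposited FPKM values, and 99.998% of 589231 values above 0 gave whole reads.

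A gene was tested if 3 or more of the 9 libraries exceeded an FPKM of 1. For each comparison, limma 3.58.1 (R 4.3.3, empirical Bayes with a mean-variance trend) was fitted to log2(FPKM + 1) of 6 libraries, and p-values were adjusted by the Benjamini-Hochberg procedure. The fit was also run on simulated data. Only genes above an FPKM of 5 in CK were changed there, so that run does not cover genes near 0 such as *GSTF3*. Summaries were made in Python 3.11.15 with scipy 1.17.1, pandas 2.3.3, numpy 2.4.6 and matplotlib 3.10.9. Named genes were the 4 members, their partners, the ascorbate genes of the study's D + F vs. D list, the largest rise and fall of the glutathione and nitrogen lists in D + F vs. D, and the 2 most alike genes with a symbol for each member. Members and lists were chosen with earlier results of these data known. Alternatives were leaving out each library, another pseudocount (0.1), no filter, a mean FPKM of at least 5, other scalings, a block for the replicate number, a joint fit of the 9 libraries, limma without its trend, voom on solved reads, and the sum of both gene models. The position of D + F on other scales was added after seeing the data. Sequences of the genes were not analysed here.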

Additional observations from a re-analysis of the deposited data

How the results depend on the processing

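Over the alternatives, no result for *GPX1*, *APX1*, *GSTF3* or *GSH3* reversed its direction, and 178 of 186 refitted log2 fold changes kept their side of the threshold, while 6 were weaker and 2 stronger. *GPX1* in D + F vs. CK lost its call without the filter (1.41, limma adjusted p = 0.0706) and with quantile normalization (1.27, 0.0541), and ran between 1.17 and 1.73 (0.0279 to 0.103) when 1 library was left out. *GSTF3* in D + F vs. D was called in 1 fit on all 9 libraries (-1.65, limma adjusted p = 0.0426), and ran between -2.02 and -1.33 when 1 library was left out. Accordingly, 1 gene was called in D + F vs. D in that fit and 0 to 1 when 1 library was left out. With a mean FPKM of at least 5, only 2 genes were called in D vs. CK, since *GSTF3* and *GSH3* were no longer tested and gave no value.

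Of all genes tested, the number called in D vs. CK was 16209, and it fell to 10006 without CK replicate 2 and 10288 without D replicate 3. In D + F vs. CK it was 8641, and it fell to 3228, 3125 and 4194 without CK replicate 2, D + F replicate 2 and D + F replicate 3. In D + F vs. D it was 580, against 22 without the filter, 322 with a mean FPKM of at least 5, and 0 to 179 in the fits that moved it by leaving out 1 library. Without the filter, 0 genes of the glutathione list and 0 of the nitrogen list were called in D + F vs. D. The scale mattered for the rare transcripts, where a pseudocount of 0.1 or voom moved *GSTF3* in D vs. CK up to 4.77, in D + F vs. CK (not called) up to 1.28 and in D + F vs. D down to -3.49, and *GSH3* in D vs. CK down to -8.08, in D + F vs. CK down to -3.86 and in D + F vs. D up to 4.22. The position of D + F between D (0) and CK (1), on scales chosen after seeing the data, was 0.792 (pseudocount 0.1) and 0.732 (voom) for *GSTF3*, and 0.402 and 0.522 for *GSH3*. Summing the pair of gene models gave 3.91 for *GSTF3* and -3.41 for *GSH3* in D vs. CK, and -3.58 for *GSTF3* in D + F vs. D.

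The labels do not say that a replicate number marks a shared batch, and in no comparison were the deviations of all same-numbered pairs from their group means correlated above 0.1, so the libraries were not treated as paired. In D + F vs. CK the correlations were 0.053, 0.266 and 0.306, and 6 of 6 libraries were closest to their own number, a hint of pairing from the data. They ran between -0.191 and 0.221 in D + F vs. D (2 of 6 closest) and between -0.291 and 0.058 in D vs. CK (1 of 6). The replicate number as a block changed no call of the 4 genes. With it, 11060 genes were called in D + F vs. CK, where *GPX1* had a limma adjusted p of 0.00601, and 11986 in D vs. CK. With the block, the D + F vs. D values were -0.91 for *GPX1* (limma adjusted p = 0.183) and -1.65 for *GSTF3* (0.128), and 1 gene of all tested was called, or 5 with median-of-ratios scaling.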
